A study of Rattus norvegicus with 6 samples.

Results

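The genes of the proteasome were followed in the renal cortex of rats that received ethylenediamine dihydrochloride. They were taken by symbol, as every gene on the array whose name starts with Psma, Psmb, Psmc, Psmd, Psme, Psmf or Psmg and a digit, with the immunoproteasome genes Psmb8 and Psmb9 left out. This gave 44 of the 15645 genes named on the array, of which 43 passed the filter on dim probes and were tested among 11530 genes. Of these, 41 encode subunits, regulators or assembly factors of the proteasome. The other 2 carry a matching symbol only: Psmc3ip, a factor of meiotic recombination, and Psme3ip1, a protein that binds the Psme3 activator. Psma8, the testis form of an alpha subunit, was the member that did not pass the filter. Its brightest probe exceeded background clearly in 2 of 3 water animals and 1 of 3 treated animals, and its other probes in none. No probe here matched Psmd11, Psmg1, Psmg3, Psmb11 or the gene copies Psmb3l1, Psmb3l2, Psmb6l1 and Psmg4l1, which were not analysed here.

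The animals were 6 male Sprague-Dawley rats of the Crl:CD(SD) stock, bought at 5 weeks of age and kept on a basal diet. In the water group, 3 rats received water for 4 weeks. In the treated group, 3 rats received 500 mg/kg/day ethylenediamine dihydrochloride, the salt of a small diamine, over the same 4 weeks. Age at sampling and the route of dosing are not given in the sources used here. Each rat gave 1 array of Cy3-labelled cRNA, and the design text calls the 3 animals of a group biological replicates. The comparison asked which cortical transcripts differ after treatment.

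Between 35691 and 40843 of 61515 probes were well above background on an array, with the lowest number in ethylenediamine replicate 1. The labelled tissue was checked with marker genes. All 6 proximal tubule markers and all 3 podocyte markers were well above background on all 6 arrays. The log2 summed signal of the proximal tubule markers ran from 9.996 to 10.06 in water and from 9.96 to 9.98 in ethylenediamine, so these ranges did not overlap. The single markers were split. Lrp2, Slc5a2 and Aqp1 had the lower mean in ethylenediamine, by -0.19, -0.14 and -0.11. Slc34a1, Cubn and Slc22a6 did not, at 0.00, 0.02 and 0.02. The part of this difference in the results below was not tested. In bulk tissue, fewer cells of a type and less RNA per cell cannot be told apart. The leukocyte markers, of which 6 of the 9 with a probe were above background on all 6 arrays, summed to 5.83 to 6.31 in water and 6.05 to 6.10 in ethylenediamine. Red blood cell markers summed to 8.71 to 9.05 in water and 8.80 to 9.22 in ethylenediamine, and podocyte markers to 4.85 to 5.17 and 4.65 to 5.02. The genes listed for inner medulla summed to 4.72 to 5.18 and 4.39 to 4.93. Nearly all of that sum came from Aqp3 (4.38 to 5.18 over the 6 arrays), while Slc14a2 ran from -3.05 to -2.68. Most of the leukocyte sum came from Lyz2 (5.76 to 6.24). Of 3 adrenal genes, Cyp17a1 exceeded background on all 6 arrays, Star on 1 water array and Cyp11b1 on none. The water animals shared slide 1 with ethylenediamine replicate 1, while replicates 2 and 3 of the treated group were on slide 2. A comparison within slide 1 therefore rests on a single treated animal, as does the difference fitted with the slide as a block.

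The proteasome is the protease that degrades proteins marked with ubiquitin chains. Its 20S core is a barrel of stacked rings: outer alpha rings that gate the entrance, and inner beta rings whose Psmb5, Psmb6 and Psmb7 subunits carry the cutting sites. The 19S particle caps the barrel; its ATPases unfold the substrate and its lid removes the ubiquitin. Most subunits are made together in fixed proportions, and in mammalian cells the transcription factor NRF1, encoded by Nfe2l1, raises the subunit genes as a set when proteasome activity falls short, through antioxidant response elements in their promoters. NRF2, encoded by Nfe2l2, binds similar sites. In the proximal tubule, which makes up most of the cortex, filtered protein is taken up and degraded mainly in lysosomes, and the proteasome serves the cells' own proteins.

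Promoter sequences are shown for the catalytic beta subunits Psmb5 and Psmb6. They are also shown for Psmb2, the beta ring gene with the smallest p, and the ATPase gene Psmc1, with the smallest p of all members. The sequences are examples, from genes that did not pass the adjusted threshold below. Each runs 5′ to 3′ on the gene's strand over the 150 bases before the RefSeq start, in build GRCr8, and capitals mark the letters of the antioxidant response element core TGACNNNGC or of CCAAT on either strand.
Psmb2, chr5:144254908-144255057, plus strand: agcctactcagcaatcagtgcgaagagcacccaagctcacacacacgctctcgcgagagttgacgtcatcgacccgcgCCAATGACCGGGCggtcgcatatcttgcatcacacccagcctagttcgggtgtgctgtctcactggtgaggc
Psmb5, chr15:32047380-32047529, minus strand: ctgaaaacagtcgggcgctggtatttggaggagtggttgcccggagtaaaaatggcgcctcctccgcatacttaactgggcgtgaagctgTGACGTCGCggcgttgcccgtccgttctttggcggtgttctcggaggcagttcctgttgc
Psmb6, chr10:55737738-55737887, plus strand: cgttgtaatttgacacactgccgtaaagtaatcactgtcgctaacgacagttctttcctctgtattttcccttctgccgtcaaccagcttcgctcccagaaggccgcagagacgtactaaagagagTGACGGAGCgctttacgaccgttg
Psmc1, chr6:125122347-125122496, plus strand: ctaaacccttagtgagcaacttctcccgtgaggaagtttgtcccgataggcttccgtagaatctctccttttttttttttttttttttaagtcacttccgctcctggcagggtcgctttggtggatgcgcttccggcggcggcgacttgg
In Psmb2 the CCAAT letters and the element core share their last and first base, at position -68 from the start. The core lay at -60 to -52 in Psmb5 and at -24 to -16 in Psmb6. The printed bases of Psmc1 hold neither motif. Its CCAAT lay farther out, at -162 to -158. The promoter of Psmb7, the other catalytic gene, holds CCAAT but not the core and is not printed. Psmd12, the member with the largest difference, had no RefSeq promoter here, nor had Psma7, Psmd6 and Psmd14. The core was found in 8 of the 39 members with a promoter (20.5%), against 12.1% of all promoters.

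No proteasome gene passed the threshold. At a Benjamini-Hochberg adjusted p under 0.05 in limma, 0 of 43 members were called, as were 0 of all 11530 genes (0%). At an unadjusted p under 0.05 the members called were 3, Psmc1, Psmd12 and Psmb2, all with the higher mean in ethylenediamine, and none had the lower mean. That is 6.98% of the members, against 10.4% of all genes; on the higher side alone, where all 3 calls lay, the share of all genes was 5.39%, and on the lower side 4.97%. The count of 3 became 0 without water replicate 1, 1 without water replicate 2, 2 without water replicate 3, 6 without ethylenediamine replicate 1, 2 without ethylenediamine replicate 2 and 1 without ethylenediamine replicate 3. Scaled to each array's median it was 0, against 10.1% of all genes. With the slide as a block it was 0, and with a variance trend on intensity it was 10 (23.3% of the members, beside 10.8% of all genes). The shares over all genes with the slide as a block or an array left out are not printed here. Those counts are therefore not set against all genes.

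The members' differences were small and mostly of one sign. The log2 fold change, ethylenediamine minus water, was above 0 for 33 members and below 0 for 10, which is 76.7% above 0 against 48.8% of all genes. It ran from -0.10 for Psmc3ip to 0.20 for Psmd12, a fold of 0.933 to 1.15. The median was 0.05 over the 43 members and -0.00 over all genes. With the array median in place of the 75th percentile, every gene shifted by -0.03: 26 members lay above 0 and 17 below (60.5%, against 40.3% of all genes), the members' median was 0.03 and the median of all genes was -0.03. The distance between these medians was 0.06 under both scalings. With quantile scaling 31 members lay above 0 and 12 below (72.1%, against 46.1% of all genes).

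**Figure D1:**
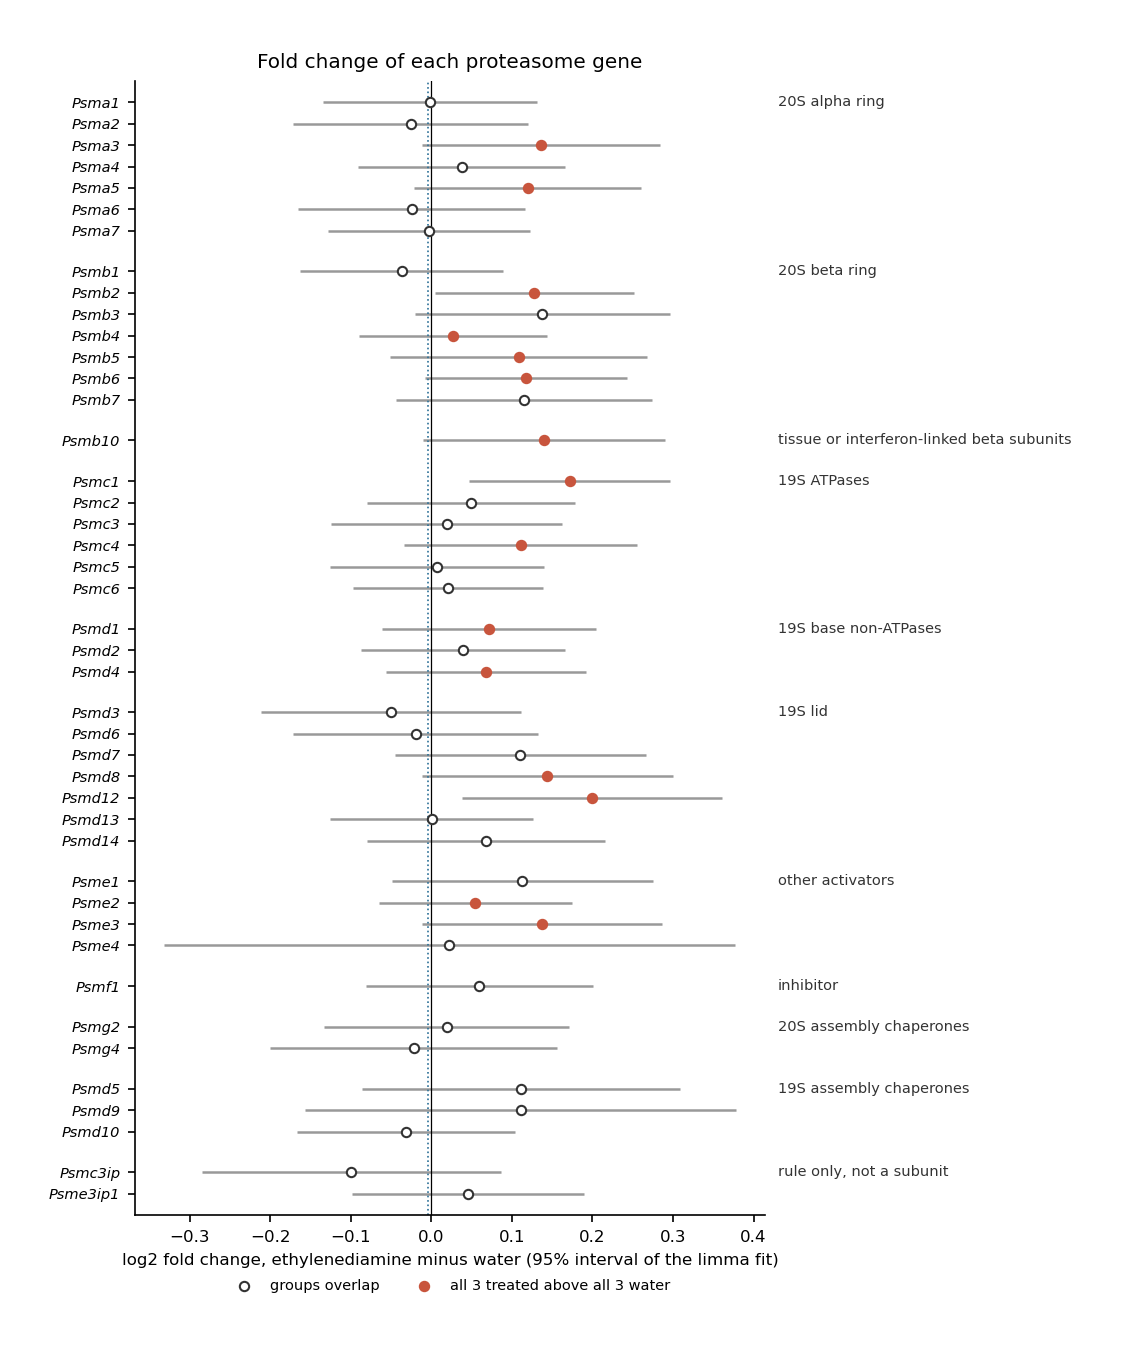
Log2 fold change of each of the 43 proteasome genes, ethylenediamine minus water, with the 95% interval of the limma fit over 3 arrays per group, ordered by role. The solid line is 0, the dotted line is the median of all genes tested, and filled points mark the 15 genes whose 3 ethylenediamine values all lie above the 3 water values; with median scaling 4 genes do.

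In 15 members all 3 ethylenediamine values lay above all 3 water values, and in none all 3 lay below. This was 34.9% of the members, against 9.2% of all genes for the higher side and 8.27% for the lower side. The 15 genes were Psma3, Psma5, Psmb2, Psmb4, Psmb5, Psmb6, Psmb10, Psmc1, Psmc4, Psmd1, Psmd4, Psmd8, Psmd12, Psme2 and Psme3. With median scaling 4 members (9.30%) remained, Psmb2, Psmb6, Psmc1 and Psmd8, against 6.21% of all genes for the higher side. Psmd13 then had all its ethylenediamine values below water. Without ethylenediamine replicate 1, 24 members lay wholly above and 3 wholly below, against 16.9% of all genes for the higher side. The shares of all genes on the lower side under these alternatives are not given here. In ethylenediamine replicate 1 alone, which shares the slide of the water arrays, 22 members lay above every water value and 5 below, against 27.9% of all genes on either side.

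The precision of these genes was high for this design. All 43 members were well above background on all 6 arrays, and 33 lay in the brightest quartile of the genes tested, 8 in the next and 2 in the one below that. Their median pooled SD was 0.05 on the log2 scale, against 0.12 for all genes and 0.07 for the brightest quartile. In the brightest quartile as a whole 49.3% of genes had a log2 fold change above 0, the median was -0.00 and 11.6% had all ethylenediamine values above water. The standard errors of the members ran from 0.05 to 0.14. For 40 of 43 members the whole 95% interval lay within a 1.25-fold difference either way (0.32 on the log2 scale), a limit chosen after the values were seen. The upper bound passed it for Psmd12, Psmd9 and Psme4, and the lower bound for Psme4.

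**Figure D2:**
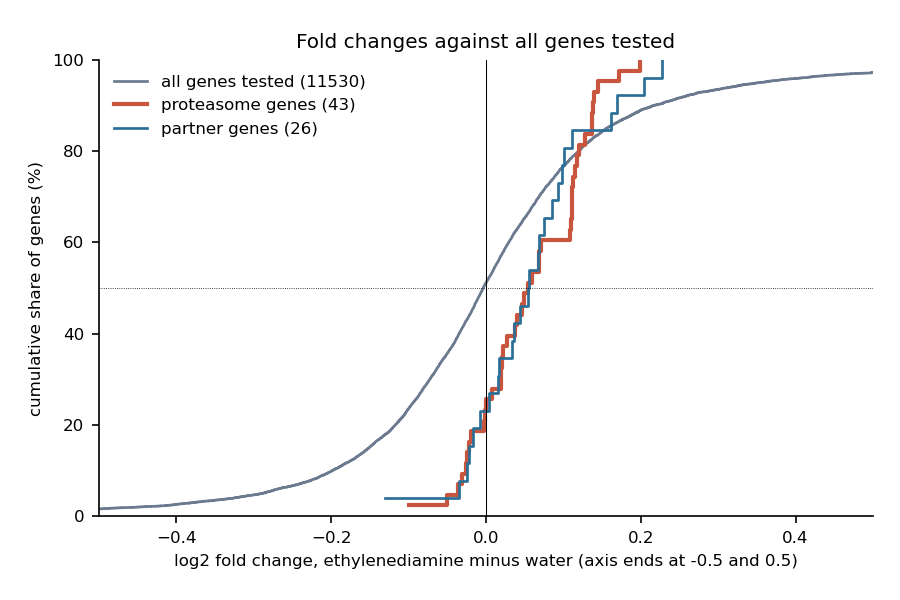
Cumulative share of genes, in percent, against the log2 fold change, ethylenediamine minus water, for all 11530 genes tested, the 43 proteasome genes and 26 genes that work with the proteasome. Both smaller sets lie in a narrower range than all genes and cross the 50% line near 0.05 to 0.06, against -0.00 for all genes; with median scaling both cross near 0.03.

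The alpha ring, which gates the core, showed values on both sides of 0. Of its 7 members 3 lay above 0 and 4 below, with a median of -0.00 and none at an unadjusted p under 0.05. The split was the same with median scaling (median -0.03) and quantile scaling (median -0.00), and was 4 above and 3 below, with a median of 0.02, after normexp background correction. Psma3 had the smallest p of the ring. Its log2 signal relative to the array's 75th percentile was 4.04, 4.06 and 4.14 on the water arrays and 4.14, 4.24 and 4.27 on the ethylenediamine arrays. The treated values lay just above the water values with no overlap, and ethylenediamine replicate 1 was closest to water. The log2 fold change of Psma3 was 0.14 ± 0.06 (SE, n = 3 per group; limma, unadjusted p = 0.0642, adjusted p = 0.504), and 0.07 within slide 1. A second, dimmer probe of Psma3 gave -0.10, so the probes disagreed in sign. Psma5 gave 3.49, 3.53 and 3.55 in water and 3.57, 3.69 and 3.67 in ethylenediamine, again without overlap, a log2 fold change of 0.12 ± 0.06 (SE; limma adjusted p = 0.536). The other alpha genes had log2 fold changes of -0.00 (Psma1), -0.03 (Psma2), 0.04 (Psma4), -0.02 (Psma6) and -0.00 (Psma7), with overlapping groups.

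The beta ring holds the cutting sites, and 6 of its 7 genes lay above 0, with a median log2 fold change of 0.12 (5 of 7 and 0.09 with median scaling). Of the 7, 4 had groups that did not overlap, all on the higher side (9.2% of all genes and 11.6% of the brightest quartile); with median scaling 2 did, Psmb2 and Psmb6 (6.21% of all genes). Psmb2, a structural beta subunit, gave log2 signals of 4.18, 4.16 and 4.23 in water and 4.30, 4.33 and 4.33 in ethylenediamine. The treated animals lay close together and above every water animal. Its log2 fold change was 0.13 ± 0.05 (SE; 95% interval 0.00 to 0.25; 1.09-fold; limma unadjusted p = 0.045, adjusted p = 0.479), with 0.11 within slide 1 and a range of 0.10 to 0.15 over the 19 alternatives, whose adjusted p ran from 0.383 to 0.812.

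The catalytic subunits stood next to it in size. Psmb5, with chymotrypsin-like activity, gave 4.47, 4.44 and 4.42 in water and 4.50, 4.49 and 4.66 in ethylenediamine. The groups did not overlap, but ethylenediamine replicate 3 lay far above the other treated animals. The log2 fold change of Psmb5 was 0.11 ± 0.06 (SE; 95% interval -0.05 to 0.27; limma adjusted p = 0.616), and 0.06 within slide 1. Psmb6, with caspase-like activity, gave 2.77, 2.74 and 2.77 in water and 2.84, 2.87 and 2.93 in ethylenediamine. Every treated value lay above every water value, and the water values were almost equal. The log2 fold change of Psmb6 was 0.12 ± 0.05 (SE; 95% interval -0.01 to 0.24; limma adjusted p = 0.501), and 0.08 within slide 1. Psmb7, with trypsin-like activity, gave 3.11, 3.01 and 3.06 in water and 3.09, 3.21 and 3.23 in ethylenediamine. Here ethylenediamine replicate 1 lay within the water range, and the other treated animals above it. For Psmb7 the log2 fold change was 0.12 ± 0.06 (SE; 95% interval -0.04 to 0.27; limma adjusted p = 0.589), and 0.02 within slide 1. All 3 catalytic genes thus had point estimates near 1.08-fold, with intervals that include no difference.

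Among the other beta genes, Psmb3 had a log2 fold change of 0.14 ± 0.06 (SE; limma adjusted p = 0.529), with ethylenediamine replicate 1 just below the highest water value. Psmb4 had no overlap but a difference of 0.03 ± 0.05 (SE; limma adjusted p = 0.862), and its value was -0.00 with median scaling. Psmb1 was the beta gene below 0, at -0.04 ± 0.05 (SE; limma adjusted p = 0.82).

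**Figure D3:**
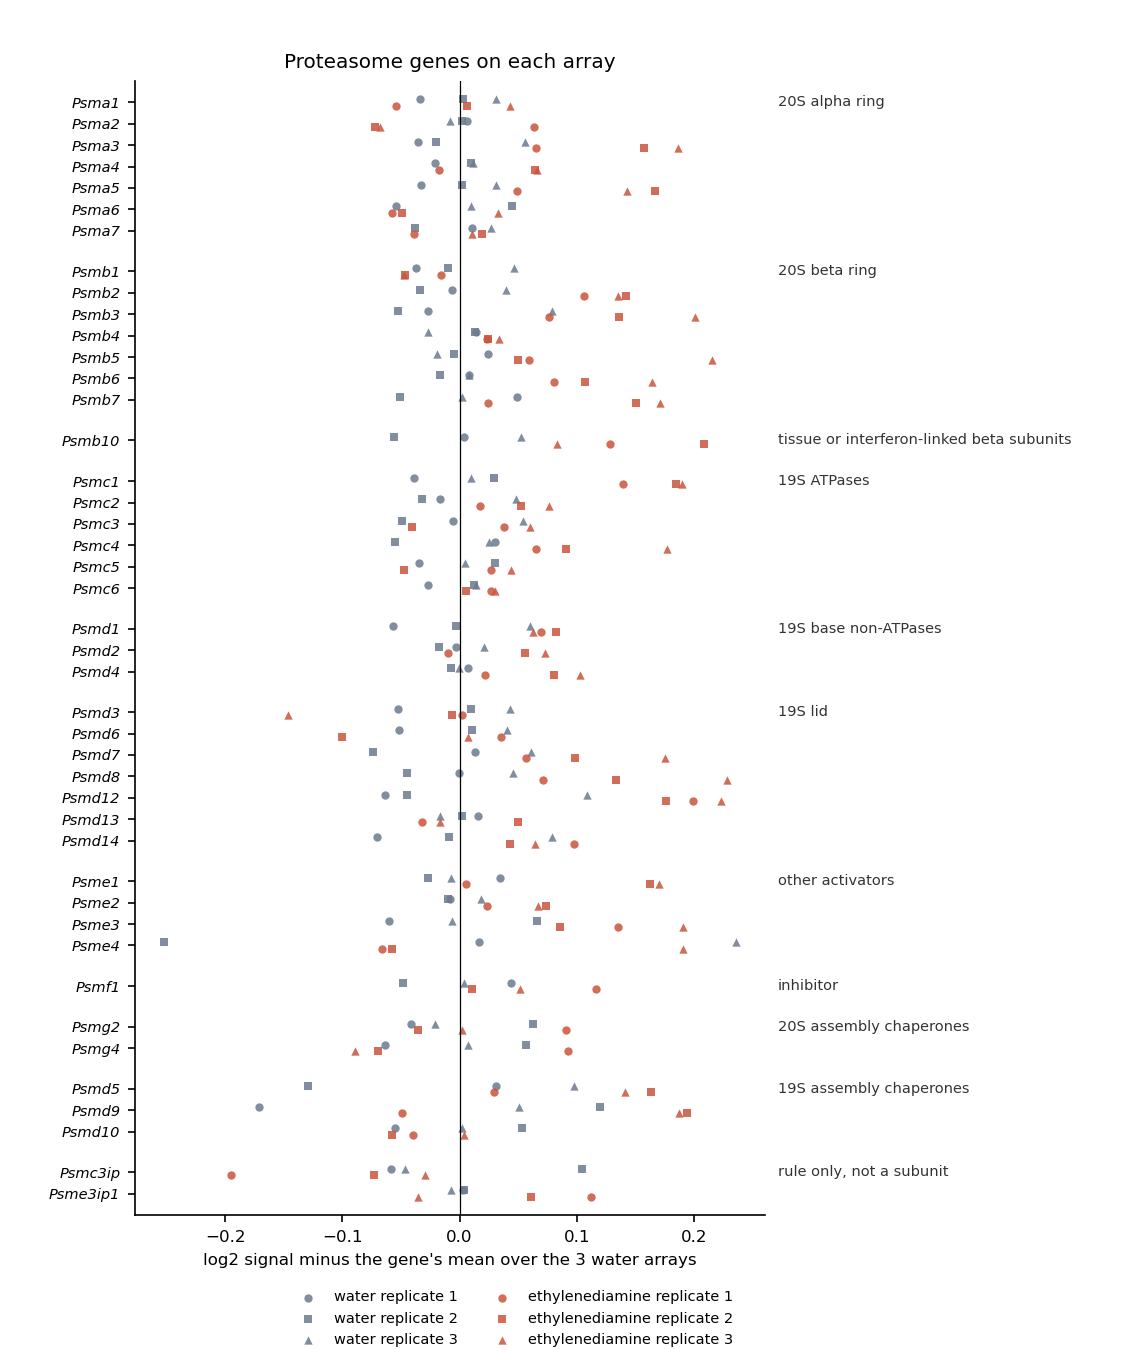
Log2 signal of each of the 43 proteasome genes on each of the 6 arrays, minus the gene's mean over the 3 water arrays, ordered by role. The beta ring shows the treated points to the right of the water points for Psmb2, Psmb4, Psmb5 and Psmb6, and Psme4 shows the widest spread between water animals, from 1.59 to 2.08 in log2 signal.

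Promoter letters were counted over the 39 members with a RefSeq promoter, in windows of 250 bases before and 50 after the start. The element core TGACNNNGC on either strand occurred in 8 of them (20.5%) and in 12.1% of all 33465 promoters. That larger set was not limited to the genes tested. The 8 were Psma3, Psmb2, Psmb5, Psmb6, Psmd1, Psmd3, Psmd9 and Psme4. Of these, 7 had a log2 fold change above 0 and 5 had groups that did not overlap, with a median of 0.11; of the 31 members without the core, 24 lay above 0, 9 had no overlap and the median was 0.05. Over all genes 9.2% had no overlap on the higher side. With median scaling 2 of the 8 and 2 of the 31 had none, against 6.21% of all genes. CCAAT on either strand occurred in 20 of 39 members (51.3%) and in 37.5% of all promoters, and the median log2 fold change was 0.06 with it and 0.05 without it. Members' promoters had a median GC content of 56%, against 51.7% for all promoters. Whether this difference bears on how often such letters occur was not tested. A match of letters is a description of the sequence and not evidence of binding.

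Psmb10 encodes the inducible form of the trypsin-like subunit, which replaces Psmb7 in immunoproteasomes. It gave 2.70, 2.64 and 2.75 in water and 2.83, 2.91 and 2.78 in ethylenediamine. The groups did not overlap, and ethylenediamine replicate 3 was closest to water. Its log2 fold change was 0.14 ± 0.06 (SE; 95% interval -0.01 to 0.29; limma adjusted p = 0.503), and 0.13 within slide 1. The immunoproteasome partners of Psmb10, which are not among the members, varied more between the water animals. Between the treated animals Psmb9 varied more than Psmb10 and Psmb8 varied less. Psmb8 gave 0.93, 0.50 and 0.86 in water and 0.88, 0.92 and 0.94 in ethylenediamine, with overlap, and a log2 fold change of 0.15 ± 0.12 (SE; limma adjusted p = 0.692). Psmb9 ranged from 1.14 to 1.40 in water and from 1.26 to 1.49 in ethylenediamine, with a log2 fold change of 0.05 ± 0.10 (SE; limma adjusted p = 0.895). Of 8 tested genes of interferon response and antigen processing, 6 lay above 0 and 2 below, none had an unadjusted p under 0.05 and none had groups that did not overlap. The smallest p belonged to Tap1, a subunit of the peptide transporter, at 0.20 ± 0.11 (SE; limma adjusted p = 0.578).

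All 6 ATPases of the 19S base, the ring of motors that unfolds substrates, lay above 0, with a median log2 fold change of 0.03; with median scaling 3 lay above 0 and 3 below, and the median was 0.01. Psmc1 (RPT2) gave 4.39, 4.46 and 4.44 in water and 4.57, 4.61 and 4.62 in ethylenediamine. The gap between the groups was wider than the range within either group. The difference for Psmc1 was a log2 fold change of 0.17 ± 0.05 (SE; 95% interval 0.05 to 0.30; 1.13-fold; limma unadjusted p = 0.0156, adjusted p = 0.38), with 0.14 within slide 1 and 0.11 to 0.19 over the alternatives, whose adjusted p ran from 0.29 to 0.741. A second, dimmer probe of Psmc1 gave 0.05 ± 0.06 (SE). Psmc4 (RPT3) gave 2.48, 2.39 and 2.47 in water and 2.51, 2.54 and 2.62 in ethylenediamine, without overlap, and a log2 fold change of 0.11 ± 0.06 (SE; limma adjusted p = 0.573). Psmc2, Psmc3, Psmc5 and Psmc6 lay between 0.01 and 0.05, with overlapping groups.

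The 3 tested base subunits that are not ATPases lay above 0 under both scalings, with a median of 0.07 (0.04 with median scaling). Psmd4 (RPN10), a ubiquitin receptor, gave 3.54, 3.52 and 3.53 in water and 3.55, 3.61 and 3.63 in ethylenediamine. The water values were nearly equal, and ethylenediamine replicate 1 lay just above them. Its log2 fold change was 0.07 ± 0.05 (SE; 95% interval -0.06 to 0.19; limma adjusted p = 0.671), and 0.02 within slide 1. Psmd1 (RPN2), a large scaffold subunit, had a log2 fold change of 0.07 ± 0.05 (SE; limma adjusted p = 0.68) on its brightest probe, where the groups were apart by less than 0.01. A dimmer Psmd1 probe gave 0.17, with an unadjusted p of 0.0256 in limma fitted to every kept probe and an adjusted p of 0.408. Psmd2 (RPN1), which docks shuttle factors, had 0.04 ± 0.05 (SE; limma adjusted p = 0.806).

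The lid removes ubiquitin from the substrate, and 5 of its 7 tested genes lay above 0, with a median of 0.07 (4 of 7 and 0.04 with median scaling). Psmd12 (RPN5), a lid scaffold subunit, had the largest difference of all members. It gave 3.90, 3.92 and 4.08 in water and 4.17, 4.14 and 4.19 in ethylenediamine. The treated animals lay close together, above water replicate 3 by less than that replicate's distance from the other water animals. For Psmd12 the log2 fold change was 0.20 ± 0.07 (SE; 95% interval 0.04 to 0.36; 1.15-fold; limma unadjusted p = 0.0234, adjusted p = 0.407), with 0.20 within slide 1 and 0.15 to 0.25 over the alternatives, whose adjusted p ran from 0.35 to 0.726. A second Psmd12 probe gave 0.10 ± 0.05 (SE). Psmd8 (RPN12) gave 2.85, 2.81 and 2.90 in water and 2.92, 2.98 and 3.08 in ethylenediamine, a log2 fold change of 0.14 ± 0.06 (SE; limma adjusted p = 0.504) without overlap. Psmd14 (RPN11), the deubiquitinase of the lid, gave 0.94, 1.01 and 1.09 in water and 1.11, 1.06 and 1.08 in ethylenediamine. Its groups overlapped, and its log2 fold change was 0.07 ± 0.06 (SE; 95% interval -0.08 to 0.22; limma adjusted p = 0.714). Psmd7 (RPN8), the partner of Psmd14, had 0.11 ± 0.06 (SE; limma adjusted p = 0.599). Psmd13 (RPN9), Psmd6 (RPN7) and Psmd3 (RPN3) had 0.00, -0.02 and -0.05, with overlapping groups.

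**Figure D4:**
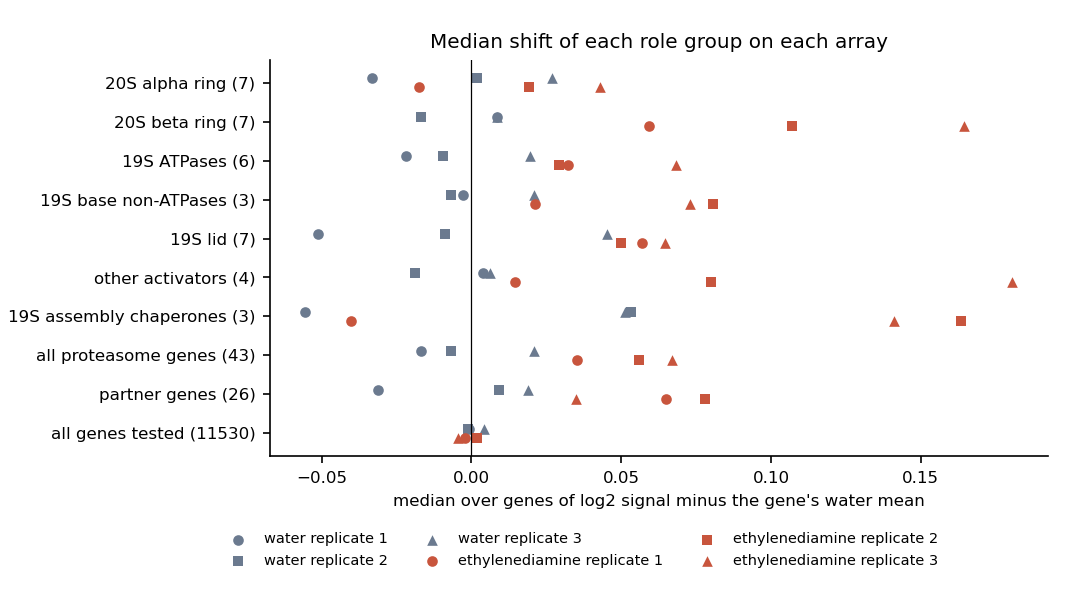
Median, over the genes of a role, of log2 signal minus the gene's water mean, on each of the 6 arrays, with the number of genes in parentheses. The median over all 43 members was 0.04, 0.06 and 0.07 on ethylenediamine replicates 1 to 3 and -0.02, -0.01 and 0.02 on water replicates 1 to 3, while the median over all 11530 genes stayed within 0.0044 of 0 on each array; signals were scaled to the 75th percentile.

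Alternative activators open the core in place of the 19S particle. All 4 lay above 0, with a median of 0.08 (3 of 4 and 0.06 with median scaling). Psme1 (PA28 alpha) gave 5.10, 5.03 and 5.05 in water and 5.07, 5.22 and 5.23 in ethylenediamine. Ethylenediamine replicate 1 lay among the water animals and the others above them. Its log2 fold change was 0.11 ± 0.07 (SE; 95% interval -0.05 to 0.27; limma adjusted p = 0.606), and 0.01 within slide 1. Psme2 (PA28 beta), which assembles with Psme1, gave 4.92, 4.92 and 4.95 in water and 4.96, 5.01 and 5.0 in ethylenediamine. Its groups did not overlap, and its log2 fold change was 0.05 ± 0.05 (SE; limma adjusted p = 0.715). Psme3 (PA28 gamma), the nuclear activator, gave 2.72, 2.84 and 2.77 in water and 2.91, 2.86 and 2.97 in ethylenediamine. Its treated values lay above the water values by a narrow margin, with a log2 fold change of 0.14 ± 0.06 (SE; 95% interval -0.01 to 0.29; limma adjusted p = 0.505), and 0.13 within slide 1. Psme4 (PA200) gave 1.86, 1.59 and 2.08 in water and 1.77, 1.78 and 2.03 in ethylenediamine. The water animals spanned the treated ones, and the log2 fold change was 0.02 ± 0.14 (SE; 95% interval -0.33 to 0.38; limma adjusted p = 0.969). Psmf1 (PI31), which inhibits the core in vitro, gave 2.73, 2.64 and 2.69 in water and 2.81, 2.70 and 2.74 in ethylenediamine. Its groups overlapped, and its log2 fold change was 0.06 ± 0.06 (SE; 95% interval -0.08 to 0.20; limma adjusted p = 0.737).

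Assembly chaperones build the core and the base and are absent from the finished particle. Psmg2, which pairs with Psmg1 to guide the alpha ring, gave -0.04, 0.06 and -0.02 in water and 0.09, -0.04 and 0.00 in ethylenediamine, with a log2 fold change of 0.02 ± 0.06 (SE; limma adjusted p = 0.934). Psmg4 had -0.02 ± 0.07 (SE; limma adjusted p = 0.936). Psmd5, a chaperone of the base, gave 0.52, 0.36 and 0.59 in water and 0.52, 0.66 and 0.63 in ethylenediamine. The groups overlapped, and its log2 fold change was 0.11 ± 0.08 (SE; limma adjusted p = 0.665). The base chaperones Psmd9 and Psmd10 had 0.11 ± 0.11 (SE; limma adjusted p = 0.741) and -0.03 ± 0.06 (SE; limma adjusted p = 0.863). None of the 5 tested chaperone genes had groups that did not overlap. Psmc3ip, at -0.10 ± 0.08 (SE; limma adjusted p = 0.682), and Psme3ip1, at 0.05 ± 0.06 (SE; limma adjusted p = 0.803), share only the form of their symbol with the subunits; without them, 32 of 41 genes lay above 0 and the median was 0.06.

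Genes that work with the proteasome under other symbols were taken from a list of 32, of which 26 were tested. Of these 20 lay above 0 and 6 below, with a median of 0.06 (17, 9 and 0.03 with median scaling). None passed the adjusted threshold in limma, 2 (7.69%, against 10.4% of all genes and 5.39% on the higher side) had an unadjusted p under 0.05 and a higher mean in ethylenediamine, and none did with a lower mean. In 6 of 26 (23.1%), among them Adrm1, Uba1, Nsfl1c, Txnl1 and Uba6, all treated values lay above all water values, and in none all below, against 9.2% and 8.27% of all genes. With median scaling 3 of 26 (11.5%) lay wholly above, against 6.21% of all genes. Adrm1 (RPN13), a ubiquitin receptor of the 19S base, gave -1.002, -1.13 and -1.16 in water and -0.90, -0.83 and -0.88 in ethylenediamine. The groups were clearly apart, and the log2 fold change was 0.23 ± 0.06 (SE; 95% interval 0.07 to 0.38; limma unadjusted p = 0.0125, adjusted p = 0.36).

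The regulators and ubiquitin sources showed values with wider spread or near 0. Nfe2l1, which encodes NRF1, gave 0.85, 0.75 and 0.91 in water and 1.07, 1.13 and 0.81 in ethylenediamine. Ethylenediamine replicates 1 and 2 lay above water and replicate 3 within it, for a log2 fold change of 0.16 ± 0.10 (SE; limma adjusted p = 0.623). Nfe2l2, which encodes NRF2, had 0.08 ± 0.14 (SE; limma adjusted p = 0.853), with overlapping groups. NRF1 is largely controlled at the protein level, which arrays do not measure. Pomp, the core maturation factor, had -0.02 ± 0.05 (SE; limma adjusted p = 0.904). The polyubiquitin gene Ubb had -0.04 ± 0.08 (SE; limma adjusted p = 0.903), with overlapping groups.

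The highest value of a gene lay in ethylenediamine replicate 3 for 21 of 43 members (48.8%), against 19.9% of all genes. It lay in ethylenediamine replicate 2 for 8 members (18.6%) and in replicate 1 for 6 (13.95%), against 17.3% and 16.4% of all genes. Water replicates 1, 2 and 3 held it for 0, 3 and 5 members (0%, 6.98% and 11.6%), against 15.9%, 16.9% and 13.6% of all genes. The lowest value lay in water replicate 2 for 17 members (39.5%) and in water replicate 1 for 11 (25.6%), against 17.3% and 15.9% of all genes. Without ethylenediamine replicate 3 the median log2 fold change of the members was 0.05. Within slide 1, 32 members lay above 0 and 11 below, and their median was 0.04, the difference between ethylenediamine replicate 1 and the mean of the water animals.

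Probe choice and gene copies limit single values. Of 43 members 24 had several kept probes, and in 8 of these the probes differed in sign. Over all 75 kept probes of the members, 56 lay above 0 and 19 below, with a median of 0.05 and a smallest adjusted p of 0.397 in limma. In 19 members the RefSeq annotation lists at least 1 pseudogene, 7 of them for Psmb3 and 5 for Psma6, whose transcripts a probe might also bind; this was not tested.

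**Figure D5:**
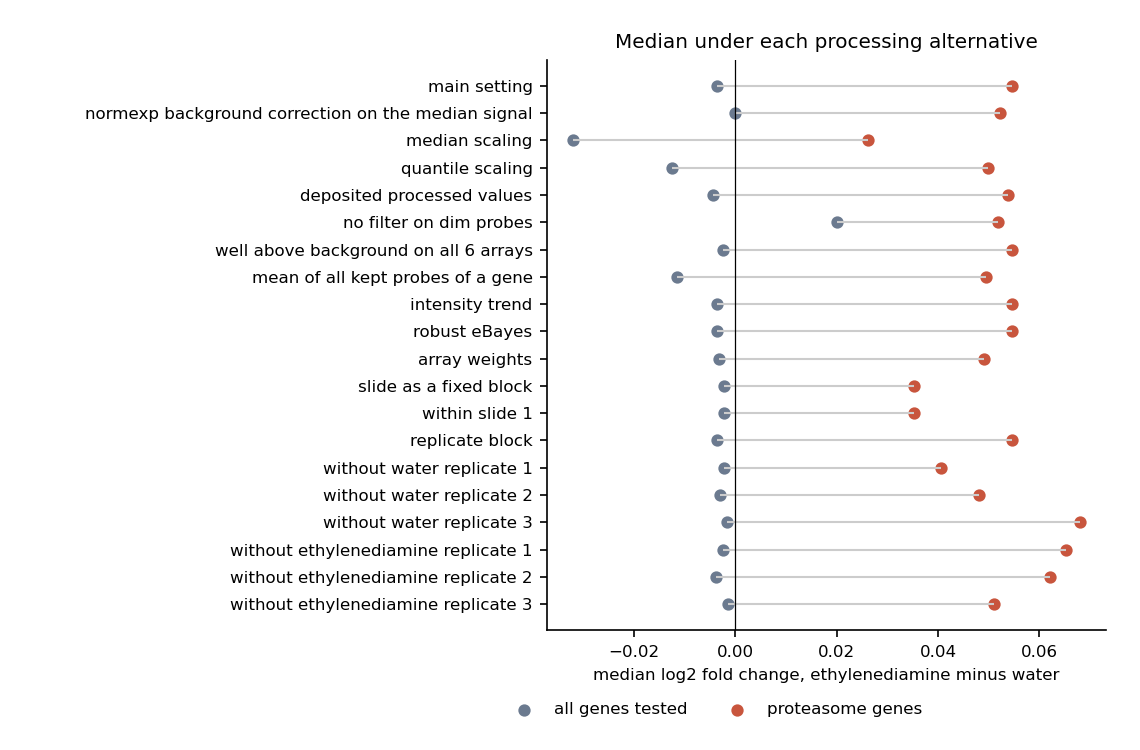
Median log2 fold change, ethylenediamine minus water, of the 43 proteasome genes and of all genes tested under the reported setting and each of 19 alternatives. The members' median ran from 0.03 to 0.07, and its distance from the median of all genes from 0.03 to 0.07, above 0 under each alternative.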

How the data were processed

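The members and gene lists were chosen with earlier results of these data known. The scanner files hold linear intensity per spot, background-subtracted on an rn4 grid by Agilent Feature Extraction 10.7.1.1, as the headers state; the submitters' processing notes give version 10.7. The authors' deposited value table is that intensity divided by each array's 75th percentile, linear and uncentred, with medians of 0.1076, 0.1053 and 0.1046 (water) and 0.1062, 0.1104 and 0.1071 (ethylenediamine); 100% of probes lay within 2% of this scaling. Here log2 intensity minus the array's 75th percentile was used for 61515 probes, without 1439 control spots and 22 probes flagged as outliers. No spot was saturated. Symbols came from RefSeq accessions through the GRCr8 annotation, used for names and promoters only. A probe was kept when either group had it well above background in all 3 animals. The brightest kept probe stood for a gene, and log2 levels of different genes are not comparable.

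The comparison used limma 3.58.1 under R 4.3.3 (lmFit, eBayes; 4 residual and 1.84 prior degrees of freedom), with Benjamini-Hochberg adjustment over all 11530 genes and a threshold of 0.05. The code was tested on simulated data. The number of arrays limits the precision. Members in full were those with an unadjusted p under 0.05, the smallest p of each role and a fixed set of catalytic, receptor and activator genes; every other member is named. Of the partner and interferon lists, those with an unadjusted p under 0.05, or otherwise the 2 smallest, and a fixed set were named, though some genes that this rule gave are not reported here; other members given with values were chosen after their values were seen. Arrays differed in slide and scan day together. Alternatives covered background correction, scaling, filters, probe choice, the variance model, weights, slide, the replicate number and each array left out.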

Additional observations from a re-analysis of the deposited data

How the results depend on the processing

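Over 19 alternatives no proteasome gene passed the adjusted threshold (smallest adjusted p 0.29 in limma), and 87 of 109 recomputed counts and medians stayed close to the reported values. Some of these could not move. An intensity trend, robust eBayes and the replicate number as a block leave every log2 fold change as it was. All 43 members pass the filter for all 6 arrays. The deposited values use the same scaling and so could move little. The count over all genes, 0 as reported, was 1 with an intensity trend, 10 with slide as a fixed block, 6 within slide 1, and 0 to 1 with an array left out. Members at an unadjusted p under 0.05, 3 as reported, numbered 0 with median scaling, against 10.1% of all genes. With an intensity trend they numbered 10, against 10.8% of all genes. They numbered 0 with slide as a fixed block, 1 with the replicate number as a block and 0 to 6 with an array left out, without a share over all genes here. The members' median was 0.0262 with median scaling, 0.0353 with slide as a fixed block and inside slide 1 alone, and 0.04 to 0.07 with an array left out. The partner median, 0.0550 as reported, was 0.0266 with median scaling and 0.0291 with the mean of kept probes. Members with groups apart in either direction, 15 as reported, numbered 5 with median scaling and 15 to 27 with an array left out. No share over all genes for both directions together is given here. On the higher side alone, 15 members (34.9%) lay apart as reported, against 9.2% of all genes. With median scaling 4 members (9.30%) did, against 6.21% of all genes. Without ethylenediamine replicate 1, 24 members did, against 16.9% of all genes, where groups of fewer arrays come apart more often. The within-slide values rest on 1 treated array. So do the log2 fold changes with slide as a fixed block, since the other slide held treated arrays only. The cause of the other shifts was not tested. Over 817 single-gene values, which include those that could not move, 57 changed sign. These lay in 17 members, all with a reported log2 fold change of at most 0.11 in size. Same-numbered animals did not visibly deviate together (correlations -0.00, 0.02 and -0.01). No pairing by number was seen, though 3 animals per group cannot exclude it. Normexp correction used the median signal and was added after the files were seen; the planned version on the mean signal was not run.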
